A study of Mus musculus with 18 samples.

Results

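Expression of 10 genes of the hypoxia-inducible factor (HIF) pathway was followed in bone marrow-derived macrophages (BMDMs), namely Hif1a, Epas1, Egln1, Egln3, Vegfa, Adm, Ero1l, Bnip3, Ankrd37 and Ndrg1. They were chosen by name for their place in the pathway, with earlier results of these data known. Of these, 10 of 10 were found among the 24485 genes in the files. HIF is a transcription factor made of an oxygen-regulated alpha subunit, encoded by Hif1a or Epas1, and a stable partner, ARNT. In oxygenated cells prolyl hydroxylases such as those encoded by Egln1 and Egln3 mark the alpha subunit for destruction, and in hypoxia it accumulates and switches on genes for new vessels, altered metabolism, protein folding and mitochondrial turnover. In macrophages the pathway is also known to respond to bacterial products at normal oxygen, where HIF1A protein is controlled through its mRNA as well as through its stability. The measurements below are of mRNA, so they say nothing about HIF protein or its activity.

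RNA-seq was performed on 18 libraries from BMDMs of 12-week-old male Il10-/- mice on the C57BL/6J background, which lack the cytokine IL-10, and all 6 groups share this genotype. Macrophages from 3 mice were given (+)-JQ1 at 500 nM, IL-10 at 10 ng/mL or neither for 12 h, and then LPS at 50 ng/mL or PBS for another 4 h, with 3 libraries in each group. (+)-JQ1, called JQ1 here, is an inhibitor of the BET bromodomain proteins that read acetylated chromatin, and LPS is a component of the outer membrane of Gram-negative bacteria. The groups are called unstimulated, JQ1, IL-10, LPS, LPS + JQ1 and LPS + IL-10. The labels call the cells without JQ1 or IL-10 untreated, whereas the methods mention vehicle in the LPS-stimulated control. Replicates 1, 2 and 3 were taken to be the 3 mice from their numbers, and a mouse named below means a replicate number. Each library holds a culture of many cells. A change in the number of cells that express a gene therefore cannot be told apart from a change in RNA per cell.

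The total of expected counts was 6781952 to 28289498 per library, so 3 counts corresponded to 0.106 to 0.442 CPM. The 9 macrophage markers found were expressed in every library, with a summed TPM, a level scaled by transcript length and library total, of 16490 to 30540. The T cell list of 4 genes summed to 0.12 to 0.4 TPM in unstimulated cells, 3.88 to 4.46 TPM with LPS, 0.22 to 0.63 TPM in LPS + JQ1 and 2.94 to 3.15 TPM in LPS + IL-10 libraries. Lck reached 4.46 TPM, while the T cell receptor subunits Cd3e, Cd3d and Cd3g were at most 0.25 TPM. The B cell list summed to 2.34 to 5.34 TPM in unstimulated cells, 0.2 to 0.5 TPM after JQ1 alone and 0.89 to 1.53 TPM with LPS, with Cd79b up to 4.45 TPM. The neutrophil list of 6 genes summed to 0.7 to 11.55 TPM over all groups, with Ngp up to 8.15, Camp up to 2.47 and Retnlg up to 2.3 TPM, and with Elane, Mpo and Ly6g at most 0.15, 0.09 and 0 TPM. The endothelial list of 5 genes summed to 1.30 to 1.50 TPM in unstimulated cells, 7.89 to 10.04 TPM with LPS and 0.04 to 0.31 TPM with LPS + JQ1. Kdr, which encodes a VEGF receptor, was the gene of that list that reached 8.98 TPM, while Cdh5 and Tie1 stayed at most 0.63 and 0.12 TPM. The lists of fibroblast and dendritic cell genes summed to 1.9 to 10.29 and 0.11 to 2.82 TPM over all groups. The part of other cells in the results was not tested.

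HIF binds the short core of the hypoxia response element, here searched as ACGTG or GCGTG on both strands. RefSeq promoter windows of 250 bases before and 50 after the transcription start (GRCm38.p6) were matched for 8 of the 10 members, in 9 windows, with Ero1l listed as Ero1a. Epas1 and Ndrg1 were not matched. All 9 windows were found once, without a mismatch, in the mm9 genome that the study used. A core was present in 8 of 9 windows and in 8 of 8 members, against 43.8% of all 32851 windows and 46.7% of all 27025 genes. The window without a core was the one at the 5′ end of Vegfa. Vegfa was counted through its other window, chr17:46162063-46162362, which lies within the gene. The Hif1a window, chr12:75008604-75008903, also lies within the gene position given below, chr12:75002362-75048517, and not at its 5′ end. ACGTG alone was in 19.6% and GCGTG alone in 32.4% of all windows, and the palindrome CACGTG, present in the Hif1a and Bnip3 windows, counts on both strands. The AP-1 motif TGANTCA, also read on both strands, was in 0 of the 9 windows and in 7.81% of all windows. The sequences of 4 members are shown, 2 that rose with LPS (Ero1l and Adm) and 2 that fell (Ankrd37 and Egln3), and all 4 carry a core. Each is the 250 bases before the start, 5′ to 3′ on the strand of the gene with mm9 coordinates, and capitals mark the core on either strand.
Ero1l, chr14:45938248-45938497, minus strand: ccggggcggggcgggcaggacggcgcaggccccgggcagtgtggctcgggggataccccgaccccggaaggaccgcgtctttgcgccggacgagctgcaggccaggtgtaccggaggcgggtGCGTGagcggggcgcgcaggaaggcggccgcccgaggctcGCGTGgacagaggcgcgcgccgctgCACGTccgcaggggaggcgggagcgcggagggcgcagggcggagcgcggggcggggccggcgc
Adm, chr7:117770921-117771170, plus strand: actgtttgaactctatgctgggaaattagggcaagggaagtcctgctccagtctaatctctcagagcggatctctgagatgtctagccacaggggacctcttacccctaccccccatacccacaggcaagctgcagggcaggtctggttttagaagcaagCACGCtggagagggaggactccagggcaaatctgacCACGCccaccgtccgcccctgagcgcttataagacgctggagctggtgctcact
Ankrd37, chr8:47085205-47085454, minus strand: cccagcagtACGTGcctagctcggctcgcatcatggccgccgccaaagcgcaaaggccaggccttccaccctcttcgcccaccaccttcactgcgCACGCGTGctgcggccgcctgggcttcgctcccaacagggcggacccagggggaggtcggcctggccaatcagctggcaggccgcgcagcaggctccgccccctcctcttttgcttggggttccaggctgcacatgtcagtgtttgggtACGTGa
Egln3, chr12:55304862-55305111, minus strand: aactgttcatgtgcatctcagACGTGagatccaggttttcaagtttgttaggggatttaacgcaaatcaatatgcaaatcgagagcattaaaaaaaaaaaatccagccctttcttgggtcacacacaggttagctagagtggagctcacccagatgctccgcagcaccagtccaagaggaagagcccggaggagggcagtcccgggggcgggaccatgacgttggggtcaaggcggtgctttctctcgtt
Ero1l carried 3 cores, Adm 2, Ankrd37 4, of which a pair overlap, and Egln3 1. A match is a run of letters and not a measured binding site.

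The subunits came first. Hif1a (chr12:75002362-75048517), which encodes the oxygen-regulated subunit HIF1A, had normalised read counts of 1317, 1062 and 1009 in replicates 1, 2 and 3 of unstimulated cells and 5349, 4910.3 and 6202 with LPS. LPS + JQ1 libraries had 2149, 2323 and 2016 counts, and LPS + IL-10 libraries 4935, 4571 and 5376. All LPS libraries lay above all unstimulated ones, all LPS + JQ1 libraries lay between those groups, and LPS + IL-10 overlapped with LPS. LPS raised Hif1a by a log2 fold change of 2.28 ± 0.122 (adjusted p = 4.64e-77), which is 4.85-fold. Here and below log2 fold changes are given ± SE with the adjusted p of the DESeq2 Wald test, and levels ± SD over the 3 libraries of a group. With JQ1 the LPS level was 2.54-fold lower (log2 fold change -1.34, adjusted p = 1.05e-27), and with IL-10 the difference was -0.15 (95% interval -0.38 to 0.09, adjusted p = 0.506). Without LPS the direction was the other one for JQ1: JQ1 libraries at 1622, 1599 and 1471 and IL-10 libraries at 1867, 1555 and 1412 counts were all above those of unstimulated cells. Hif1a rose by 0.47 with JQ1 (adjusted p = 0.00051) and by 0.51 with IL-10 (adjusted p = 0.00236). The IL-10 call was lost without replicate 2 (adjusted p = 0.1), and neither rise passed the threshold in limma on log2(TPM + 1) (0.27, adjusted p = 0.122 for JQ1 and 0.55, adjusted p = 0.0577 for IL-10).

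Epas1 (chr17:87153247-87232750), which encodes the alternative subunit HIF2A, separated the libraries by JQ1. Its counts were 235, 249 and 229 with JQ1 and 199, 191 and 206 with LPS + JQ1. They were 71.7, 99.8 and 101 in unstimulated cells and 94.6, 96.0 and 93.9 after IL-10 alone. LPS gave 65.0, 60.0 and 71.2, and adding IL-10 to it gave 73.1, 66.9 and 72.1. All 6 libraries with JQ1 were above all 12 without it. JQ1 raised Epas1 by 1.41 ± 0.140 without LPS (adjusted p = 1.87e-22) and by 1.60 ± 0.162 during LPS (adjusted p = 4.61e-22), which is 2.65-fold and 3.04-fold. LPS lowered it to 0.727 of the unstimulated level (log2 fold change -0.46, adjusted p = 0.013), with a narrow gap between the highest LPS library at 71.2 and the lowest unstimulated one at 71.7. That fall did not pass the threshold without replicate 2 (adjusted p = 0.219) or 3 (0.152), with the replicate block and lane together (0.057), or when only the 2 groups were fitted (0.127).

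The ratio of Hif1a to Epas1 in TPM can be read within each library and does not depend on how libraries are scaled to each other. It was 20.8, 12.0 and 11.3 in unstimulated cells and 93.1, 92.5 and 99.4 with LPS. With LPS + JQ1 it was 12.2, 13.9 and 11.1, and with LPS + IL-10 76.8, 77.2 and 84.4. The LPS + JQ1 libraries overlapped with the unstimulated ones and lay far below all LPS libraries. JQ1 alone gave the lowest ratios, 7.46 ± 0.314 (SD, n = 3), and IL-10 alone gave 19.2 ± 2.75. The ratio of Hif1a to Vegfa moved from 1.02 ± 0.0922 in unstimulated cells to 40.0 ± 12.4 with LPS, and stood at 12.8 ± 1.39 in LPS + JQ1 and 22.3 ± 4.66 in LPS + IL-10 libraries. In these 4 groups the libraries did not overlap.

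**Figure D1:**
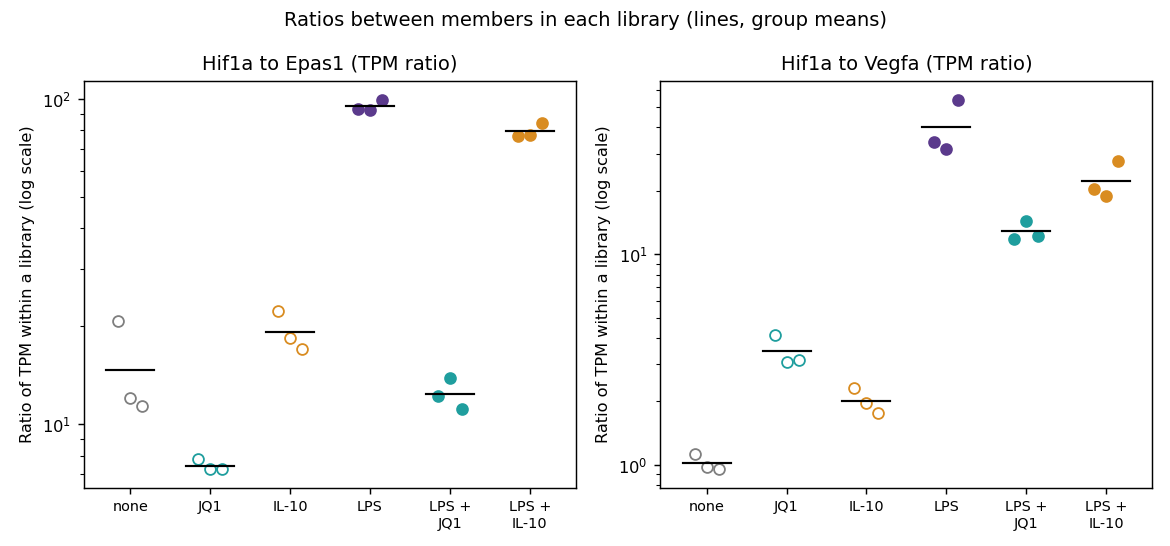
Ratio of the TPM of Hif1a to that of Epas1 (left) and of Vegfa (right) in each of the 18 libraries, on log axes, with a line at each group mean. For Epas1 the LPS libraries (92.5 to 99.4) stand far above those of LPS + JQ1 (11.1 to 13.9), and for Vegfa the LPS + JQ1 libraries (11.8 to 14.4) lie between unstimulated (0.952 to 1.12) and LPS (31.6 to 54.3).

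The other subunits and the remaining oxygen sensors are background to the members. Arnt, the shared partner, was 803 ± 37.3 in unstimulated cells and 824 ± 40.6 with LPS (log2 fold change 0.03, adjusted p = 0.671), and JQ1 raised it by 0.45 without LPS (adjusted p = 1.65e-12) and 0.55 during LPS (adjusted p = 2.07e-17). Hif3a had group means of at most 0.807 and no adjusted p. Hif1an, an asparagine hydroxylase that blocks the HIF activation domain, did not pass the test with LPS (-0.07, adjusted p = 0.466) and was 0.82 higher with JQ1 during LPS (adjusted p = 5.36e-22). Vhl, the recognition subunit of the ligase that destroys hydroxylated HIF, rose by 1.18 with LPS (adjusted p = 6.43e-35) and by a further 0.56 with JQ1 (adjusted p = 1.57e-10). Egln2, the third prolyl hydroxylase gene, rose by 0.44 with LPS, by 0.50 with JQ1 during LPS and by 0.37 with IL-10 during LPS (adjusted p = 4.92e-05, 3.24e-06 and 0.0033). In TPM, Egln2 was 50.2 ± 1.25 in unstimulated cells and 39.5 ± 1.93 with LPS, so it fell on that scale. Arnt (26.5 and 15.9) and Hif1an (14.4 and 7.97) were also lower with LPS in TPM, and Vhl (13.3 and 17.3) was higher.

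Among the members that sense oxygen, Egln1 (chr8:127432496-127473154) encodes the main prolyl hydroxylase. Its counts were 488, 494 and 477 in unstimulated cells and 362, 397 and 349 with LPS. LPS + JQ1 libraries had 357, 356 and 390.2, and LPS + IL-10 libraries 486, 587 and 469. LPS lowered it in every mouse. In these counts the LPS + IL-10 libraries were back in the range of unstimulated cells or above it, apart from replicate 3, which was just below. In TPM the LPS + IL-10 libraries, at 11.7 to 15.3, all lay below the unstimulated ones, at 19.5 to 20.3. The fall with LPS was -0.39 ± 0.0946 (adjusted p = 7.31e-05), and IL-10 during LPS raised it by 0.46 ± 0.0961 (adjusted p = 2.54e-05), 1.38-fold. JQ1 during LPS gave -0.01 (95% interval -0.20 to 0.18), a value that became 0.36 under total-count scaling (adjusted p = 0.000538) and 0.27 in limma on log2(TPM + 1) (adjusted p = 0.0114). Without LPS, Egln1 was 469.6, 472 and 471 with JQ1 (adjusted p = 0.727) and 509, 562 and 514 with IL-10 (adjusted p = 0.861).

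Egln3 (chr12:55279968-55304847), a hydroxylase gene that is itself a HIF target, was low. Unstimulated cells had counts of 20.1, 27.1 and 24.8, JQ1 cells 9.51, 9.86 and 12.8, and IL-10 cells 34.2, 36.1 and 25.8. The LPS libraries had 4.24, 8.27 and 9.82, those of LPS + JQ1 5.52, 14.7 and 11.1, and those of LPS + IL-10 9.47, 21.3 and 12.6. LPS libraries held 3 to 8 reads, and the 3 LPS groups overlapped. Egln3 fell by 1.64 ± 0.456 on the log2 scale with LPS (adjusted p = 0.000649) and by 1.14 ± 0.396 with JQ1 alone (adjusted p = 0.0109), and the JQ1 call was lost whichever mouse was left out (adjusted p 0.106 to 0.164). The differences of JQ1 and IL-10 during LPS were 0.47 (-0.52 to 1.45) and 0.90 (-0.06 to 1.86), and neither passed the threshold (adjusted p = 0.453 and 0.234).

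Of the secreted targets, Vegfa (chr17:46153942-46169326), the main growth factor of blood vessels, fell with LPS. Its counts were 809, 744 and 730.0 in unstimulated cells and 110.3, 108 and 78.6 with LPS. With LPS + JQ1 they were 126, 111 and 114, and with LPS + IL-10 168, 172 and 136. LPS libraries were far below all unstimulated ones in each mouse, while Hif1a rose in the same libraries. Vegfa was 7.71-fold lower with LPS (log2 fold change -2.95 ± 0.137, adjusted p = 7.23e-101). IL-10 raised its level during LPS by 0.67 ± 0.153 (adjusted p = 0.000198). The difference with JQ1 was 0.24 (adjusted p = 0.179), although LPS + JQ1 lay just above LPS in every library. That JQ1 difference passed the threshold under edgeR's quasi-likelihood test (0.34, adjusted p = 0.0404) and under total-count scaling (0.62, adjusted p = 0.000126). Without LPS, JQ1 lowered Vegfa to 272, 355 and 319.6 (-1.28 ± 0.111, adjusted p = 8.99e-29), and IL-10 lowered it to 550.5, 547 and 555 (-0.47 ± 0.106, adjusted p = 0.00103). The IL-10 call was lost without replicate 1 (adjusted p = 0.265) or 2 (0.105).

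Adm (chr7:117771175-117773331), which encodes the vessel-dilating peptide adrenomedullin, was almost absent without LPS. Unstimulated libraries held 0, 0 and 0 reads, JQ1 libraries 1, 0 and 4, and IL-10 libraries 1, 2 and 1. With LPS there were 39, 60 and 37 reads, or 55.1, 62.0 and 45.4 normalised counts. LPS + JQ1 gave 72.9, 54.8 and 68.9 normalised counts and LPS + IL-10 86.6, 98.8 and 83.85. All 9 LPS libraries were far above all 9 others. Adm was at least 17.3-fold higher with LPS, set against a floor of 3 counts per library (adjusted p = 1.72e-11). IL-10 during LPS raised it by 0.72 ± 0.248 (adjusted p = 0.0257), but the call was lost with the replicate block (0.72, adjusted p = 0.0803), with lane (0.0508) and whichever mouse was left out (0.268 to 0.357). JQ1 during LPS gave 0.27 (95% interval -0.23 to 0.76, adjusted p = 0.383). The test called Adm higher with JQ1 alone (adjusted p = 0.0473), but this rests on 5 reads, was lost without replicate 1 (0.121) or 3 (0.715), and no fold is given.

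Among the targets that act inside the cell, Ero1l (chr14:45902879-45938237), an oxidase that forms disulfide bonds in the endoplasmic reticulum, had counts of 280.0, 245 and 288 in unstimulated cells and 636, 529 and 787 with LPS. JQ1 gave 538, 498 and 399 alone and 939, 981 and 805 with LPS. IL-10 gave 293, 287 and 309 alone and 583, 631 and 821 with LPS. Both LPS and JQ1 set it apart from unstimulated cells, and their combination had the highest counts apart from 1 library of LPS + IL-10. LPS raised it by 1.26 ± 0.159 (adjusted p = 9.37e-15), a value of 0.33 under total-count scaling (adjusted p = 0.065). JQ1 raised it by 0.81 ± 0.159 without LPS (adjusted p = 1.8e-06) and by 0.48 ± 0.153 during LPS (adjusted p = 0.00352), the latter lost without replicate 1 (adjusted p = 0.0653) or 2 (0.196). IL-10 gave 0.12 and 0.07 (adjusted p = 1 and 0.862).

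Bnip3 (chr7:146082519-146101202), a mitochondrial protein that promotes the removal of mitochondria, followed another pattern. It had 204, 203 and 196 counts in unstimulated cells, 199, 179 and 244 with LPS, and 347, 402 and 343 with JQ1, while IL-10 libraries had 205, 205 and 169. LPS + JQ1 libraries had 367, 348 and 327 counts, and LPS + IL-10 libraries 314, 357 and 371. In these counts the libraries with JQ1, and those with LPS + IL-10, formed an upper range of 314 to 402, and the other 9 lay at 169 to 244. In TPM that split did not hold. The LPS + IL-10 libraries, at 16.1 to 21.9, overlapped with the unstimulated ones, at 17.1 to 18.2, and the LPS libraries lay at 8.99 to 13.5. LPS alone gave 0.04 (95% interval -0.21 to 0.30, adjusted p = 0.797), which turned to -0.88 under total-count scaling (adjusted p = 1.32e-10) and -0.69 in limma on log2(TPM + 1) (adjusted p = 7.14e-05). JQ1 raised Bnip3 by 0.86 ± 0.123 without LPS (adjusted p = 2.95e-11) and by 0.75 ± 0.128 during LPS (adjusted p = 1.81e-08). IL-10 raised it by 0.75 ± 0.128 during LPS (adjusted p = 1.45e-07) and gave -0.05 without LPS (adjusted p = 1).

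Ankrd37 (chr8:47082256-47085221), an ankyrin repeat gene used as a HIF reporter, was low throughout and fell with LPS whatever came before. Unstimulated libraries had counts of 19.3, 28.8 and 27.5, JQ1 libraries 20.8, 18.7 and 18.3, and IL-10 libraries 23.2, 27.7 and 25.8. LPS left 5.66, 2.07 and 7.37 counts, LPS + JQ1 3.31, 6.32 and 11.1, and LPS + IL-10 8.12, 6.08 and 9.02. All 9 LPS libraries were below all 9 others. The fall with LPS was -2.35 ± 0.513 (adjusted p = 1.04e-05), and 2 to 6 reads stood behind each LPS value. Neither JQ1 (0.48, -0.68 to 1.64) nor IL-10 (0.71, -0.44 to 1.85) during LPS gave a difference past the threshold (adjusted p = 0.515 and 0.506).

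Ndrg1 (chr15:66760883-66801202), a stress-responsive gene linked to hypoxia and differentiation, was highest where LPS and JQ1 met. Its counts were 386, 480.3 and 489 in unstimulated cells, 686, 657 and 657 with LPS, and 1090.0, 1156 and 1164 with LPS + JQ1. They were 601, 687 and 641 with JQ1, 550.5, 622 and 644 with IL-10, and 659, 619 and 591 with LPS + IL-10. The LPS + JQ1 libraries were above all 15 others, and the unstimulated ones were below all others. LPS raised Ndrg1 by 0.57 ± 0.0989 (adjusted p = 2.82e-08), but the direction turned under total-count scaling (-0.36, adjusted p = 0.000218) and in limma on log2(TPM + 1) (-0.20, adjusted p = 0.0466). JQ1 raised it by 0.51 ± 0.0975 without LPS (adjusted p = 8e-07) and by 0.77 ± 0.0946 during LPS (adjusted p = 2.14e-15). IL-10 raised it by 0.42 ± 0.0962 without LPS (adjusted p = 0.00115), a call lost without replicate 1 (0.0636) or 2 (0.1), and gave -0.10 during LPS (adjusted p = 0.603).

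**Figure D2:**
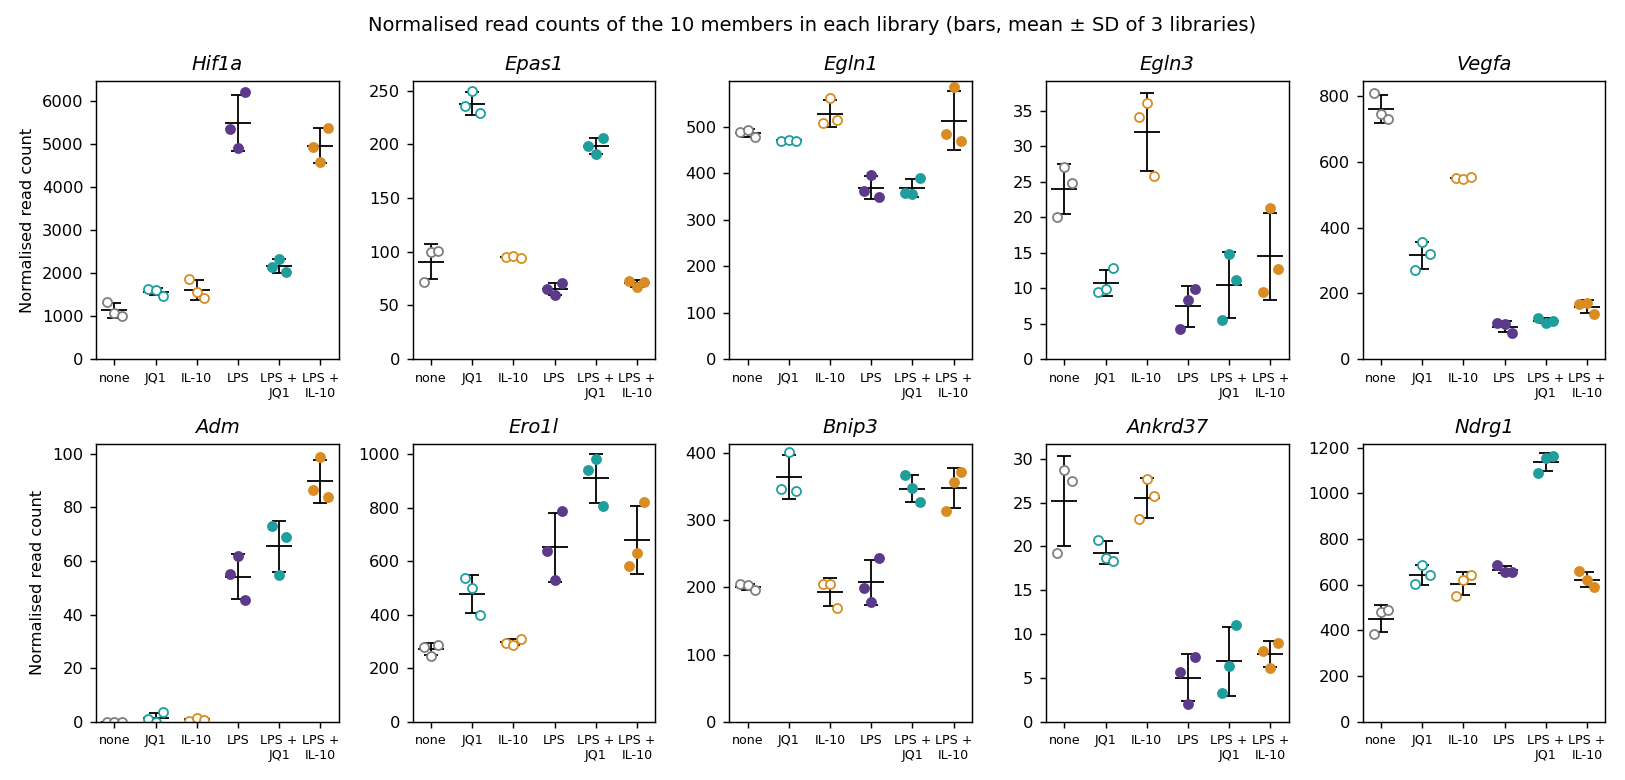
Normalised read counts (linear axes from 0) of the 10 members in each library of the 6 groups, with bars at the mean ± SD of 3 libraries; open points are without LPS and filled points with LPS. Hif1a is highest with LPS (4910.3 to 6202) and LPS + IL-10, Epas1 is high in the JQ1 groups (191 to 249), and Vegfa is low in all LPS groups (78.6 to 172).

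LPS thus changed 9 of 10 members, 4 higher (Hif1a, Ero1l, Ndrg1, Adm) and 5 lower (Epas1, Egln1, Egln3, Vegfa, Ankrd37), where 64.5% of all 14965 genes tested were called, 31.6% higher and 32.9% lower. The median log2 fold change was -0.17 over the members and -0.07 over all genes tested. Scaling mattered for these values, since the median of genes with 10 or more counts in 3 libraries was -0.07 in the DESeq2 fit, -0.997 under total-count scaling and -0.63 in limma on log2(TPM + 1). Of all calls with LPS 49% were higher in the DESeq2 fit, against 20.1% under total-count scaling and 23.2% in limma on log2(TPM + 1). Relative to that median, Ndrg1 was 0.63, 0.63 and 0.43 higher under these settings, Hif1a 2.35, 2.35 and 2.11 higher, and Bnip3 0.11, 0.11 and -0.06.

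JQ1 during LPS changed 5 of 10 members, 4 higher (Epas1, Ero1l, Bnip3, Ndrg1) and 1 lower (Hif1a), where 57.3% of all genes were called, 24.4% higher and 32.9% lower. Under total-count scaling and in limma on log2(TPM + 1) 8 members were called, 7 higher and 1 lower. The median was 0.47 over the members and -0.11 over all genes. IL-10 during LPS changed 4, all higher (Egln1, Vegfa, Bnip3, Adm), where 17.2% of all genes were called, 8.38% higher and 8.81% lower. The median was 0.56 over the members and -0.02 over all genes. The share of higher calls over all genes, 42.5% for JQ1 and 48.7% for IL-10, was 64.9% and 71.1% under total-count scaling. Both comparisons use the same LPS libraries, so their values are set side by side without a test of likeness: Bnip3 rose by 0.75 in each, whereas Hif1a was -1.34 with JQ1 and -0.15 with IL-10.

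LPS + JQ1 and LPS + IL-10 were also compared directly, and 6 of 10 members differed, against 55.3% of all genes (23.8% higher and 31.6% lower with JQ1, the higher ones making up 42.9% of calls and 61.2% under total-count scaling). Epas1 (1.48), Ndrg1 (0.87) and Ero1l (0.42) were higher with JQ1, with adjusted p = 1.16e-19, 4.81e-19 and 0.0131. Hif1a (-1.20), Egln1 (-0.48) and Vegfa (-0.42) were lower with JQ1, with adjusted p = 3.25e-22, 2.1e-06 and 0.00863. The Ero1l groups overlapped, and its call was lost without replicate 1 (adjusted p = 0.24) or 2 (0.175). The Vegfa call was lost without replicate 1 (0.0624) or 2 (0.187), and under total-count scaling (-0.14, adjusted p = 0.428), where that of Egln1 was lost too (-0.20, adjusted p = 0.0712). Bnip3 differed by 0.00 (95% interval -0.24 to 0.23), and by 0.28 under total-count scaling (adjusted p = 0.0482).

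Without LPS, JQ1 changed 8 of 10 members, 6 higher (Hif1a, Epas1, Ero1l, Bnip3, Ndrg1 and, on 5 reads, Adm) and 2 lower (Egln3 and Vegfa), where 45.7% of all genes were called, 21.9% higher and 23.7% lower. IL-10 without LPS changed 3 members, Hif1a and Ndrg1 higher and Vegfa lower, where 2.81% of all genes were called, 1.80% higher and 1.01% lower. That count of 3 fell to 0 without replicate 2 and to 1 without replicate 1 or in limma on log2(TPM + 0.1). The share of higher calls over all genes was 48% for JQ1 and 64% for IL-10, against 26.8% and 61.6% under total-count scaling and 24.3% and 83.3% in limma on log2(TPM + 1). The medians over the members were 0.49 for JQ1 and 0.12 for IL-10, and those over all genes 0.00 and -0.01.

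**Figure D3:**
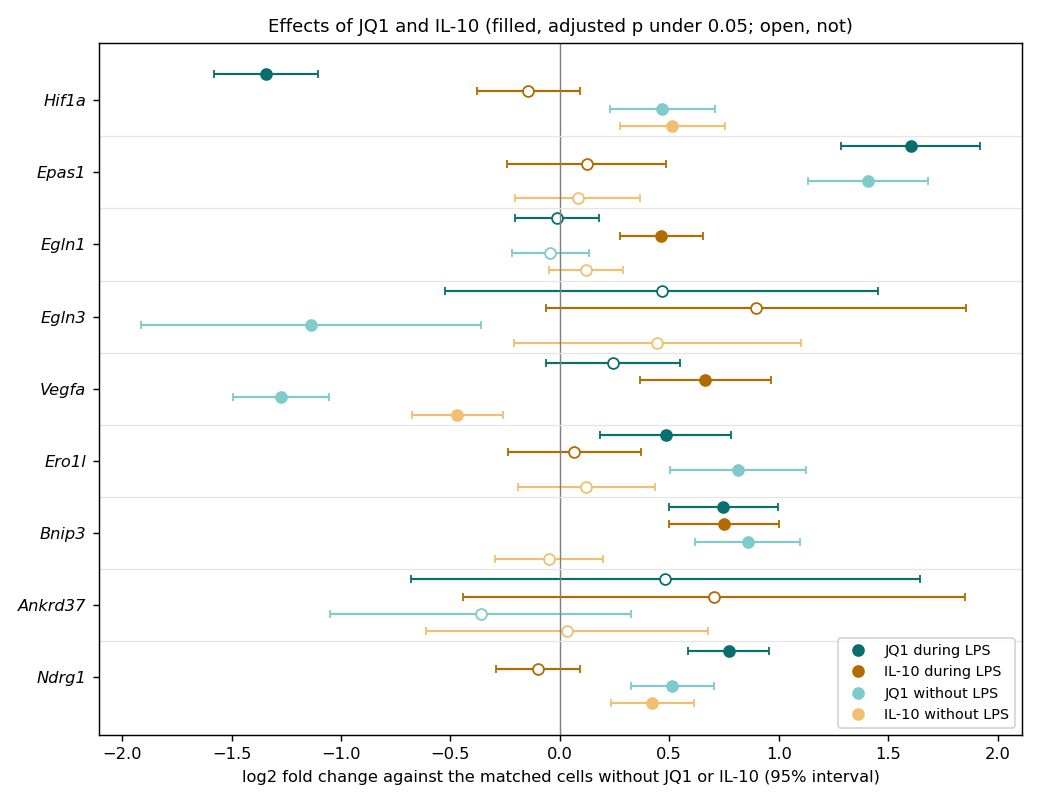
Log2 fold changes of 9 members (Adm left out for its counts near 0) for JQ1 and IL-10, each against the matched cells without either, during LPS and without LPS; points are DESeq2 estimates, lines 95% intervals, and filled points passed an adjusted p of 0.05. Hif1a is below 0 with JQ1 during LPS (-1.34) and above 0 with JQ1 without LPS (0.47), while Epas1 is above 0 with JQ1 in both (1.60 and 1.41).

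The response to LPS was then taken within each pretreatment. After JQ1, LPS changed 7 of 10 members, where 58.6% of all genes were called, and after IL-10 it changed 8, where 67.0% were called. Of these calls 47.1% and 49.6% were higher, against 25.6% and 21% under total-count scaling. Hif1a rose by 2.28 without pretreatment, by 0.47 after JQ1 (adjusted p = 0.000298) and by 1.62 after IL-10 (adjusted p = 1.84e-40), and the rise after JQ1 was 0.09 under total-count scaling (adjusted p = 0.533). Vegfa changed by -2.95, -1.43 and -1.81 in that order, and Ero1l rose past the threshold in each. Bnip3 rose with LPS only after IL-10 in this fit (0.85, adjusted p = 1.03e-11, and 0.02 with adjusted p = 0.906 under total-count scaling). After JQ1 the Bnip3 value was -0.07 (adjusted p = 0.656). It became -0.44 under total-count scaling (adjusted p = 0.00065) and -0.325 in limma on log2(TPM + 1) (adjusted p = 0.0302). Ndrg1 rose by 0.82 after JQ1 (adjusted p = 6.17e-18) and gave 0.04 after IL-10 (adjusted p = 0.704), which became -0.79 under total-count scaling (adjusted p = 3.27e-17). Egln1 fell by 0.36 after JQ1 (adjusted p = 0.000314, and 0.0657 without replicate 1) and gave -0.05 after IL-10 (adjusted p = 0.649). The value of Egln1 after IL-10 became -0.876 under total-count scaling (adjusted p = 2.49e-22) and -0.725 in limma on log2(TPM + 1) (adjusted p = 6.76e-07). Ankrd37 fell by 1.51 after JQ1 (adjusted p = 0.00232, and 0.168 without replicate 1) and by 1.68 after IL-10 (adjusted p = 0.000214). Epas1 and Egln3 fell by 0.42 and 1.19 after IL-10 (adjusted p = 0.0153 and 0.00304), and the first call was lost whichever mouse was left out (0.111 to 0.148) and the second without replicate 1 (0.165) or 3 (0.0736).

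Interaction terms tested whether these responses differed from the one without pretreatment. For JQ1, 3 of 10 members passed, where 41.5% of all genes did, 17.7% with a higher and 23.8% with a lower response. Under total-count scaling and in limma on log2(TPM + 1) 7 members passed, 6 higher and 1 lower. The LPS response of Hif1a was lower by 1.81 ± 0.172 on the log2 scale after JQ1 (adjusted p = 3.42e-24), and those of Vegfa and Egln3 were higher, that is, the fall was smaller, by 1.52 ± 0.192 (adjusted p = 5.74e-14) and 1.60 ± 0.642 (adjusted p = 0.0323). The Egln3 call was lost whichever mouse was left out (0.119 to 0.335). For IL-10, 8 of 10 members had an adjusted p and 4 passed, where 7.44% of all genes did, 4.00% higher and 3.44% lower. The response was higher for Vegfa (1.133 ± 0.186, adjusted p = 1.34e-07) and Bnip3 (0.80 ± 0.179, adjusted p = 0.000295) and lower for Hif1a (-0.66 ± 0.171, adjusted p = 0.00307) and Ndrg1 (-0.52 ± 0.138, adjusted p = 0.00353). Without replicate 2 the calls of Hif1a (0.105), Bnip3 (0.105) and Ndrg1 (0.172) were lost, and that of Ndrg1 also without replicate 3 (0.0947). In limma the Hif1a call was lost on log2(TPM + 1) (-0.585, adjusted p = 0.111) and log2(TPM + 0.1) (-0.597, adjusted p = 0.116). The Ndrg1 call was lost on log2(TPM + 0.1) (adjusted p = 0.0537). All 3 mice had the sign of the term in each of the 7 cases called above. These terms were picked by a test on the same libraries, so the shared sign is not separate evidence. Over all genes 42.6% of the JQ1 terms called and 53.7% of the IL-10 terms were higher, against 85.4% and 73.6% under total-count scaling. Each term is the effect of the pretreatment during LPS less its effect without LPS. For JQ1 these were 0.24 (not called) and -1.28 for Vegfa and 0.47 (not called) and -1.14 for Egln3. For Hif1a and Ndrg1 the IL-10 terms hold the effect of IL-10 without LPS (0.51 and 0.42) as well as that during LPS (-0.15 and -0.10).

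**Figure D4:**
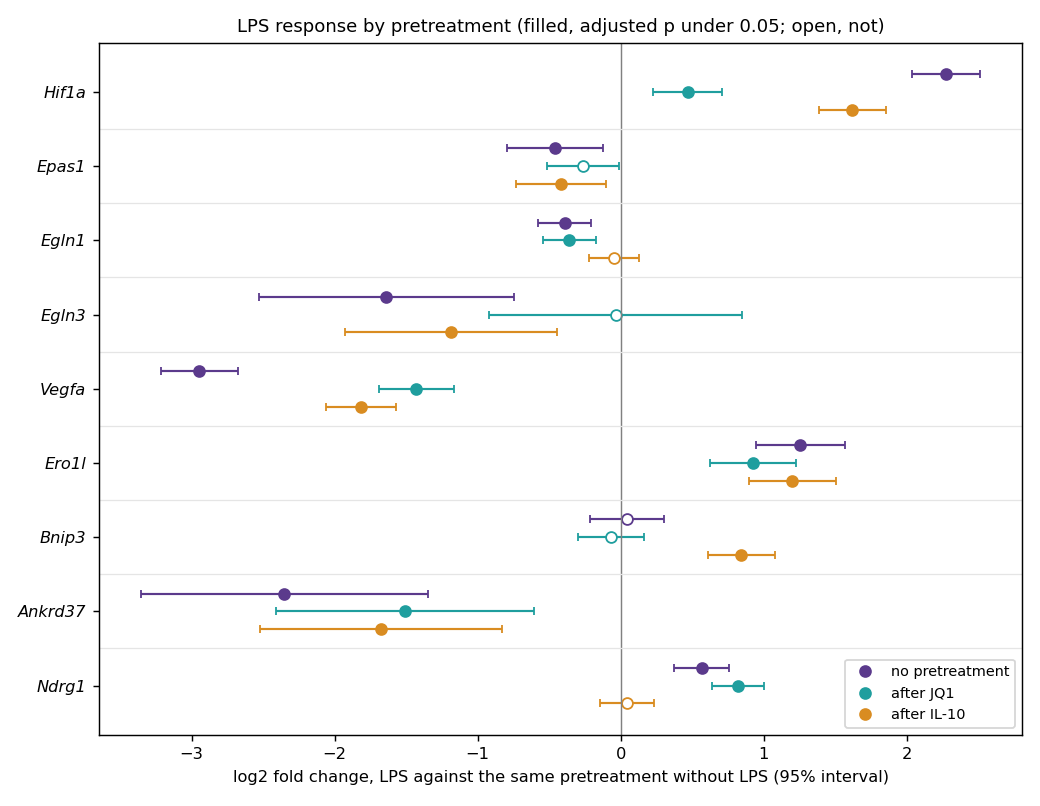
Log2 fold change with LPS of 9 members (Adm left out for its counts near 0) in cells without pretreatment, after JQ1 and after IL-10; points are DESeq2 estimates, lines 95% intervals, and filled points passed an adjusted p of 0.05. The rise of Hif1a is 2.28, 0.47 and 1.62 in the 3 settings and the fall of Vegfa -2.95, -1.43 and -1.81.

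The order of the members' levels, in TPM and so per length, changed with treatment. In unstimulated cells Hif1a (34.0 ± 5.28) and Vegfa (33.3 ± 2.19) were at the top and overlapped, followed by Ndrg1 (22.9) and Egln1 (20.0), which overlapped, Bnip3 (17.6), Ero1l (8.80), Ankrd37 (4.83), Epas1 (2.41), Egln3 (1.32) and Adm (0). With LPS, Hif1a (97.0 ± 18.5) stood alone, then came Ndrg1 (19.7), Ero1l (12.4), Bnip3 (10.7) and Egln1 (8.86), of which Ero1l overlapped with Bnip3 and Bnip3 with Egln1, and Adm (3.62) was above Vegfa (2.48). With LPS + JQ1, Hif1a (47.0 ± 5.06) and Ndrg1 (41.6 ± 3.12) overlapped at the top, and Epas1 (3.80) and Vegfa (3.67) overlapped with each other. With LPS + IL-10 the order began with Hif1a (94.3 ± 12.7), and Ndrg1, Bnip3, Ero1l and Egln1 (19.9 to 13.3) came next. Of these, Ndrg1 overlapped with Bnip3, Bnip3 with Ero1l and Ero1l with Egln1.

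A list of 80 further genes of the pathway, written by role with earlier results of these data known, was counted in the same fits. With LPS, 35 rose and 17 fell of 76 tested (68.4%, against 64.5% of all genes), with a median of 0.40 against -0.07 over all genes. Edn1, the vasoconstrictor endothelin, went from 0.223 ± 0.387 counts in unstimulated cells, where no library held more than 1 read, to 3075 ± 587 with LPS (adjusted p = 8.295e-28). Cited2, a HIF-induced competitor for the HIF coactivator, rose by 3.43 (adjusted p = 4.99e-74). Narf (-4.96), Rora (-2.99), Bhlhe41 (-2.20) and the VEGF family member Vegfb (-2.19) fell the most among genes with a mean of 100 or more counts. By role, 6 of 7 genes of oxygen sensing and HIF degradation rose and 0 fell, 11 of 19 genes of glucose uptake and glycolysis rose and 3 fell, and 1 of 9 other hypoxia-responsive genes rose and 6 fell. Of all genes tested, 31.6% rose and 32.9% fell. These role counts hold for the DESeq2 fit, where 49% of all calls with LPS were higher, against 20.1% under total-count scaling. Among the 6, Egln2 and Tceb2 (351.4 and 277.8) were lower in TPM with LPS, and Vhl, Cul2, Tceb1 and Rbx1 were higher. The role list leaves out the members Egln1 and Egln3, which also encode oxygen-sensing hydroxylases and fell with LPS (-0.39 and -1.64).

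With JQ1 during LPS, 25 of the 75 tested rose and 28 fell (70.7%, against 57.3% of all genes), with a median of -0.18 against -0.11. Narf (4.56), Selenbp1 (1.15), the histone demethylase gene Kdm4b (1.135) and Fam162a (1.08) rose the most by the rule used, and Edn1 (-9.19), Pfkfb3 (-2.43) and Ccng2 (-1.25) were among those that fell the most. Edn1 was 5.28 ± 0.869 counts with LPS + JQ1. The glycolysis genes split into 7 higher and 7 lower, where 24.4% of all genes were higher and 32.9% lower. With IL-10 during LPS, 20 of 69 rose and 6 fell (37.7%, against 17.2%), with a median of 0.10 against -0.02, and leaving out replicate 2 left 13 calls. Pfkfb3, which makes the activator of the glycolytic enzyme phosphofructokinase, was 475 ± 47.9 counts in unstimulated cells, 4446 ± 299 with LPS, 824 ± 72.0 in LPS + JQ1 and 22680 ± 3000 in LPS + IL-10 libraries, so that it rose by 3.22 with LPS and by 2.35 with IL-10 during LPS (adjusted p = 1.48e-202 and 4.27e-122). Narf (2.32), the collagen-modifying enzyme gene Plod1 (1.15) and the lactate exporter gene Slc16a3 (0.90) rose next, and Cited2 (-1.61), Ccng2 (-1.12), Pdgfb (-0.63) and Rptor (-0.26) fell. Of the 19 glycolysis genes 9 rose and 1 fell, where 8.38% of all genes rose and 8.81% fell. Higher calls made up 48.7% of all calls with IL-10 during LPS in this fit and 71.1% under total-count scaling. Without LPS, JQ1 raised 33 and lowered 17 of 73 (68.5%, against 45.7% of all genes), and IL-10 raised 1 of 70 (1.43%, against 2.81%), Plod1 (0.25, adjusted p = 0.0448), with 0 calls in edgeR.

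The genes whose pattern over the 18 libraries was most like that of each well-measured member were found among 8371 genes by Pearson's r of log2(normalised count + 1). They were Dnajc13 for Hif1a (r = 0.984), Aplp2 for Epas1 (0.989), Ssbp4 for Egln1 (0.951), Sh2d3c for Vegfa (0.982), Ppp6r3 for Ero1l (0.979), Rnf103 for Bnip3 (0.904) and Gss for Ndrg1 (0.929). Next in order came Ap3b1 and Cask for Hif1a, Entpd5 and Atg12 for Epas1, Sphk2 and Ppp1r9b for Egln1, Senp5 and Exoc6b for Ero1l, Mt1 and Acat2 for Bnip3, and Ubox5 and Ttyh2 for Ndrg1. For Vegfa they were Vegfb (0.979), its paralog, and Dapk1. These values describe 18 libraries that share mice, treatments and scaling, and have no test.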

How the data were processed

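RNA was extracted from BMDMs in 18 cultures, 6 groups of 3, with group and replicate taken from the sample titles and the sequencing lane from the descriptions. Total RNA was depleted of ribosomal RNA by the authors, made into stranded libraries and read from both ends. STAR, mm9 and RSEM 1.2.31 are named in the submitters' processing notes, and RSEM was run with default settings. Expected counts, the reads per gene as RSEM estimated them, were taken as deposited. Of these values, 5.40% to 6.63% per library were not whole, and all were rounded here. TPM, scaled by the authors for transcript length and library total, was used for levels between genes and as an alternative scale. The deposited effective lengths served as an offset in 1 alternative. Default RSEM does not use strand, so reads of overlapping or antisense genes cannot be told apart, and near-identical genes may share reads.

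The Wald test of DESeq2 is the one the methods name for pairs of groups. Here DESeq2 1.42.0 (R 4.3.3) was fitted to all 18 libraries and all 24485 genes, 7578 of them at 0 throughout, with group as the only term. A gene was called changed where its Wald p, adjusted by Benjamini and Hochberg over all genes tested, was under 0.05. The number tested varies with DESeq2's independent filtering. On simulated data for the LPS comparison the Wald test recovered most of the changed genes but made more false calls than its nominal rate, whereas edgeR 4.0.16 did not. The simulation changed few genes, as many up as down, whereas 64.5% of the genes tested were called with LPS here. Its rates therefore need not hold for the calls reported. The quasi-likelihood test of edgeR was among the alternatives, and the others were lane and replicate terms, TMM and total-count scaling, limma 3.58.1 on log2(TPM + 1) and log2(TPM + 0.1), filters, fits of only the groups compared and leaving out each replicate.

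Same-numbered libraries were taken to come from the same mouse, because the methods give 3 mice in biological triplicate and the titles number the replicates 1 to 3 in every group. Their deviations from the group means correlated at 0.119, 0.11 and 0.15 for the LPS comparison, 0.07, -0.067 and -0.124 for JQ1 during LPS and 0.205, 0.282 and 0.469 for IL-10 during LPS. For JQ1 against IL-10 during LPS the values were 0.037, -0.054 and -0.12, and for LPS after IL-10 0.007, 0.061 and -0.06. Replicates 1 and 3 were each on 1 lane, and replicate 2 was on lane 7 without and lane 8 with LPS, so lane is partly tied to LPS. No replicate pair was as alike as sampling noise would allow (chi-square per degree of freedom 3.97 to 28.3). Floors of 3 counts cover counting error only.

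The members, the 80 further pathway genes, the marker lists and the tests were chosen with earlier results of these data known. In the pathway list the symbol Pkm was used for Pkm2, which the files do not list, and the markers Emr1 and Trbc2 were not found. Besides the members, the text names Arnt, Hif3a, Egln2, Hif1an and Vhl, the 4 pathway genes with the largest changes in each direction with LPS and with JQ1 or IL-10 during LPS (called, mean of at least 100 counts, same sign in all 3 pairs of libraries), and the 3 genes most like each member with a mean of at least 100 counts. Some genes that the rule or the marker lists name are not reported here. Gene positions are from GENCODE vM1 on mm9.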

Additional observations from a re-analysis of the deposited data

Results flagged for a closer look

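The LPS response of 5 members differed by pretreatment, by the interaction term of the DESeq2 fit. After JQ1 the response of Hif1a differed by -1.81 (adjusted p = 3.42e-24), that of Egln3 by 1.60 (adjusted p = 0.0323) and that of Vegfa by 1.52 (adjusted p = 5.74e-14). After IL-10 the response of Hif1a differed by -0.66 (adjusted p = 0.00307), that of Vegfa by 1.133 (adjusted p = 1.34e-07), that of Bnip3 by 0.80 (adjusted p = 0.000295) and that of Ndrg1 by -0.52 (adjusted p = 0.00353). All 3 mice showed the sign of each of these 7 terms, which were picked by a test on the same libraries, so that this is not separate evidence. The Egln3 term did not pass whichever replicate was left out (adjusted p 0.119 to 0.335). Without replicate 2 the IL-10 terms of Hif1a (0.105), Bnip3 (0.105) and Ndrg1 (0.172) did not pass, which left 1 of the 4, and that of Ndrg1 did not pass without replicate 3 either (0.0947). In limma the IL-10 term of Hif1a did not pass on log2(TPM + 1) (adjusted p = 0.111) or log2(TPM + 0.1) (0.116). That of Ndrg1 did not pass on log2(TPM + 0.1) (0.0537). With 3 libraries in a group, single libraries were not tested for standing apart.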

How the results depend on the processing

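Of 1500 values of members under 15 alternatives, 1335 kept their direction and their side of the threshold, 71 lost it, 33 gained it and 61 changed sign. Of the 61, 47 were past the threshold in neither fit, 11 in 1 fit and 3 in both; the last are Ndrg1 with LPS under total-count and the 2 TPM settings. The replicate block ended the call of Adm with IL-10 during LPS (0.72, adjusted p = 0.0803) and changed no other member's call. Total-count and TPM settings moved most values with LPS by about the shift of the median of all genes, and 3 reads or fewer in some libraries limit Adm, Ankrd37 and Egln3. The cause of the other changes was not tested.

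With total-count scaling the members called were 8 with JQ1 during LPS and 7 for the LPS response after JQ1, against 5 and 3, and 17 other pathway genes had a different LPS response after IL-10, against 9. In limma on log2(TPM + 1) the members called were likewise 8 and 7. On log2(TPM + 0.1) 6 members had a different response after JQ1, 2 after IL-10 (against 4), and 1 changed with IL-10 without LPS (against 3). When only the groups compared were fitted, 16 other pathway genes were called with IL-10 during LPS (against 26). The 1 other pathway gene called with IL-10 without LPS became 2 with the replicate block and lane, 3 with only the groups compared, and 0 with edgeR, total-count scaling, the effective-length offset, both TPM settings and no independent filtering. Leaving out each replicate gave 13 to 19 other pathway genes with IL-10 during LPS and 0 to 1 without LPS, 0 to 3 members with IL-10 without LPS and 1 to 4 with a different LPS response after IL-10, with the lowest count without replicate 2 each time and, for the other pathway genes without LPS, also without replicate 3.

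Sign changes in log2 fold change were as follows. With LPS, Bnip3 (0.044) became -0.018 with edgeR, -0.034 with TMM factors, -0.884 with total counts, -0.692 with TPM + 1 and -0.74 with TPM + 0.1, and Ndrg1 (0.566) became -0.363, -0.2 and -0.209 in the last 3. With JQ1 during LPS, Egln1 (-0.012) became 0.091, 0.105, 0.364, 0.272 and 0.296 in those settings and 0.089 with only the groups compared. With IL-10 during LPS, Ndrg1 (-0.099) became 0.01 and 0.011 in the TPM settings. Between JQ1 and IL-10 during LPS, Bnip3 (-0.004) became 0.093, 0.099, 0.276, 0.186 and 0.194, and 0.075 with only those groups, and Ankrd37 (-0.225) 0.055 with total counts. After JQ1, the LPS value of Bnip3 (-0.066) became 0.005 with the replicate block and lane, and that of Egln3 (-0.034) 0.015 with edgeR, 0.018 with TMM and 0.023 with only the groups compared. After IL-10, that of Ndrg1 (0.043) became -0.011, -0.021, -0.786, -0.654 and -0.678. For the difference in LPS response after JQ1, Ero1l (-0.329) became 0.224, 0.196 and 0.195 with total counts and the TPM settings, Bnip3 (-0.11) 0.02 with TMM and 0.445, 0.367 and 0.403, and Adm 0.277 with TPM + 1. After IL-10, Ero1l (-0.055) became 0.046 with total counts, Egln3 (0.451) -0.014 and Adm 0.549 with TPM + 1.

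Leaving out each replicate gave ranges across 0 for Bnip3 with LPS (-0.113 to 0.152), Egln1 with JQ1 (-0.088 to 0.08) and Ero1l with IL-10 during LPS (-0.014 to 0.145), and for Ankrd37 (-0.071 to 0.107), Bnip3 (-0.089 to 0.008) and Epas1 (-0.079 to 0.194) with IL-10 without LPS. Between JQ1 and IL-10 they were Ankrd37 -0.557 to 0.148 and Bnip3 -0.112 to 0.095. For LPS after JQ1 they were Bnip3 -0.136 to 0.012 and Egln3 -0.437 to 0.198, and after IL-10 Egln1 -0.101 to 0.007 and Ndrg1 -0.055 to 0.133. For the difference in LPS response they were Bnip3 -0.234 to 0.052 and Egln1 -0.029 to 0.114 after JQ1, and Epas1 -0.034 to 0.173 after IL-10.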
